A study of Mus musculus with 3 samples.

Results

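The genes described are 10 genes of interferon γ, interleukin-12 (IL-12) and interleukin-18 (IL-18) signalling: the cytokine gene Ifng, the receptor genes Ifngr1, Ifngr2, Il12rb1, Il12rb2, Il18r1 and Il18rap, the kinase genes Jak2 and Tyk2, and the transcription factor gene Stat4. They were chosen by name, as every probe set that the array's annotation assigns to exactly 1 of these symbols. This gave 14 probe sets, 1 for each of 6 genes and 2 for each of 4, out of 34945 single-symbol probe sets of 18193 genes. The study profiled sorted CD8+ T cells of mice with a T cell-specific loss of the type II TGF-β receptor, on Affymetrix arrays. The cells called KO were sorted into those with and those without NK1.1, an antigen that natural killer (NK) cells carry on their surface, and came from Tgfbr2fl/fl x CD4-Cre mice aged 15 to 17 days, and the control cells came from Tgfbr2fl/wt x CD4-Cre littermates. Mice of all 3 groups thus carried the CD4-Cre transgene and at least 1 floxed Tgfbr2 allele. CD4-Cre acts in the common precursor of CD4 and CD8 T cells, so the deletion is not limited to CD8+ cells. The sample title gives the control cells as NK1.1−, while a passage of the design text gives them as total CD8+ cells. Each group had 1 array, so no difference below has a replicate check. Whether a sample pooled the cells of several mice is unknown here.

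Interferon γ is the main macrophage-activating cytokine of CD8+ T cells and NK cells, and signals through a receptor of the chains IFNGR1 and IFNGR2 with the kinases JAK1 and JAK2. IL-12 signals through IL12RB1 and IL12RB2, with TYK2 and JAK2, to STAT4, while IL-18 signals through IL18R1 and its accessory chain IL18RAP to MyD88 and NF-κB. IL-12 and IL-18 together are a classical stimulus for interferon γ release by effector T cells and NK cells, without a need for the antigen receptor, and TGF-β is known as a brake on T-bet, STAT4 signalling and interferon γ.

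Promoter sequences from RefSeq (GRCm38.p6) were found for 9 of the 10 genes, with 12 start sites. The 250 bases before a start site are shown for the 3 genes called higher than control in both KO fractions (Ifng, Il18r1 and Il18rap) and, beside them, for Il12rb2, which was measured on no array. Capitals mark matches to TTCNNNGAA, the interferon γ activated site (GAS) motif of STAT dimers, which reads the same on both strands. The Ifng sequence is chr10:118440796-118441045 (plus strand), the Il18r1 sequence chr1:40465756-40466005 (plus strand), which lies before 1 of its 3 start sites, the Il18rap sequence chr1:40515112-40515361 (plus strand) and the Il12rb2 sequence chr6:67376189-67376438 (minus strand).
Ifng: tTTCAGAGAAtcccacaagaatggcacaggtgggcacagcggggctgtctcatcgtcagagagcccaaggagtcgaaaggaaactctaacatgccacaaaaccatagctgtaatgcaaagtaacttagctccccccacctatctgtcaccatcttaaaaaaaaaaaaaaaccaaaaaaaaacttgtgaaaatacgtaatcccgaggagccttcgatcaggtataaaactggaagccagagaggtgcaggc
Il18r1: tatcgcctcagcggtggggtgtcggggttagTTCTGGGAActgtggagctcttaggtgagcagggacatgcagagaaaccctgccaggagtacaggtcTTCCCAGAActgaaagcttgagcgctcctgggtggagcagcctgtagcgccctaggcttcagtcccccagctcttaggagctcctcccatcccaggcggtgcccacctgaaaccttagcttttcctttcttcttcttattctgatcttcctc
Il18rap: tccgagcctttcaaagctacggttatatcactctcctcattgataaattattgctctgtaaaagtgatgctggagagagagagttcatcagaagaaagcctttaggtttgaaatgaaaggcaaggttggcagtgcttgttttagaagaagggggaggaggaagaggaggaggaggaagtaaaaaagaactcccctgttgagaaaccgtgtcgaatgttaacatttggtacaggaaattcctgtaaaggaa
Il12rb2: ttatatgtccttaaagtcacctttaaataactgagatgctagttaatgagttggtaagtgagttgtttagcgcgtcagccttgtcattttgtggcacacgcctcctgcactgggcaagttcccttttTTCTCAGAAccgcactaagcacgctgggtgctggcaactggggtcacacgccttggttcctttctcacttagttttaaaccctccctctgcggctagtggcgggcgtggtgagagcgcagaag
The motif was present once before Ifng, with its first base 249 bases before the start site, once before Il12rb2 (123 bases) and at 2 places before the Il18r1 start shown (219 and 152 bases). These are 3 of the 12 windows, against 7.02% of 32851 RefSeq promoter windows of this length. The T-box core GGTGTGA, the AP-1 motif TGANTCA and the Runx core TGTGGT, each searched on both strands, were in 0 of the 12 windows and in 3.33%, 6.75% and 14.0% of all windows. The matches describe the letters only, since no binding was measured.

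The values are probe set intensities on a linear scale, as deposited. A value counted as measured from a detection level of 9.57 upwards (3.26 on the log2 scale). This is the 95th percentile of 142 probe sets of genes that T cells are not known to use, such as odorant receptors and keratin-associated proteins. Lower values were set to the level for each difference, and a gene was called higher or lower at a difference of at least 2-fold. A gene with several probe sets is represented by its brightest. Of the 10 genes, 8 were measured on all 3 arrays. Both Ifngr2 probe sets, at 4.98 to 9.49, and the Il12rb2 probe set, at 4.74 to 4.82, were below the level on every array. With such values the array gives no account of the second chain of the interferon γ receptor or of the IL-12 receptor.

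**Figure D1:**
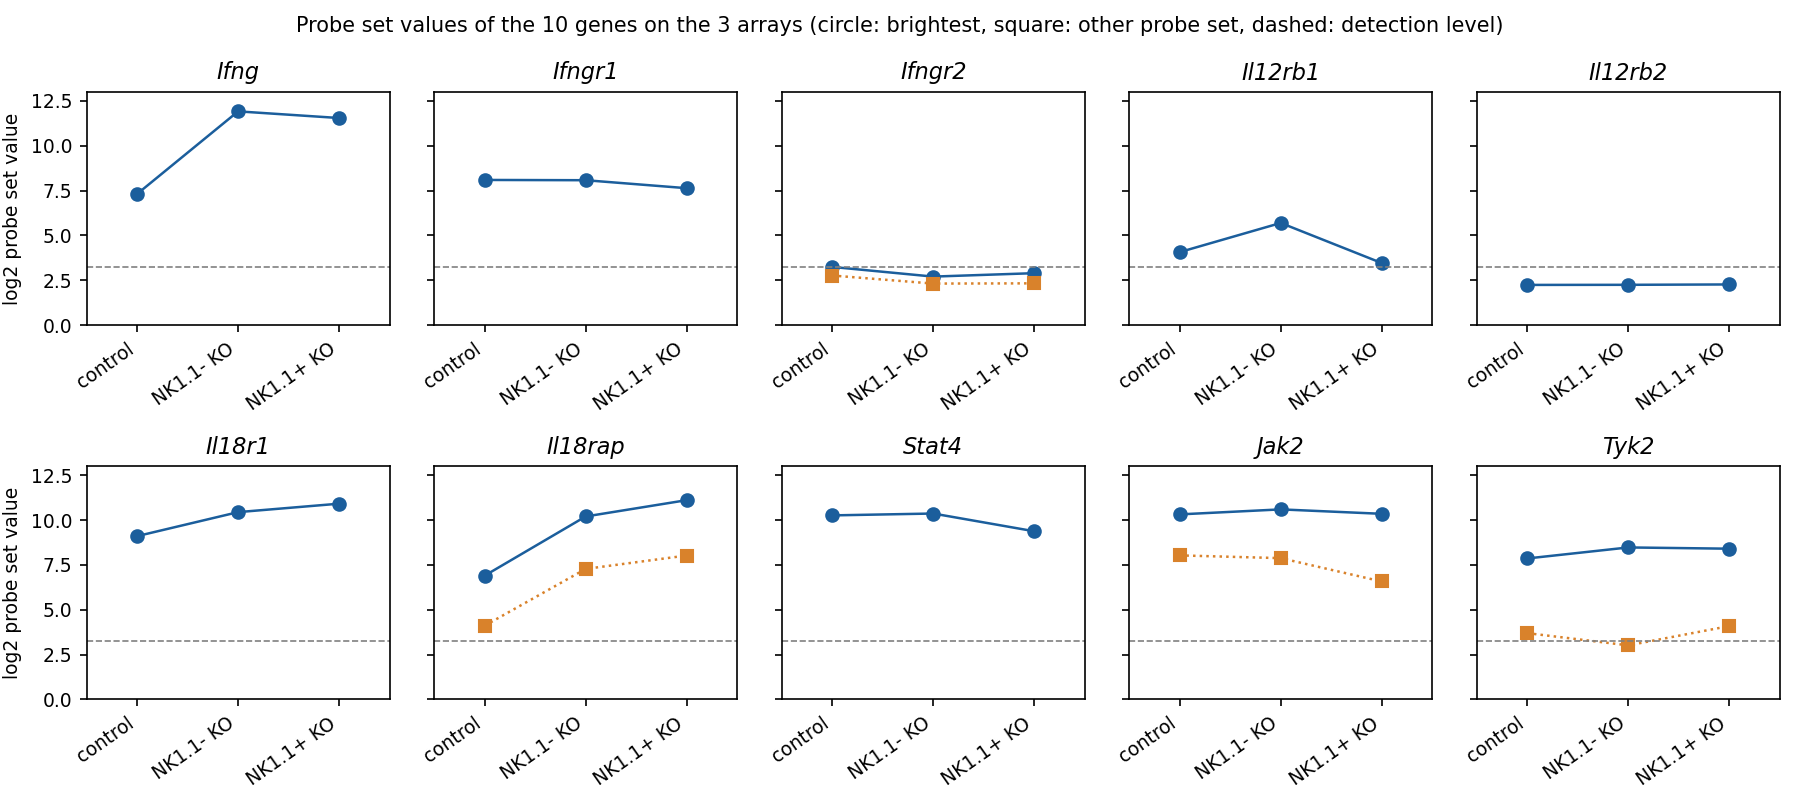
Log2 probe set values of the 10 genes (one panel each) on the control, NK1.1− KO and NK1.1+ KO arrays, with 1 array per group and no error. Circles are the brightest probe set, squares a gene's other probe set and the dashed line the detection level of 3.26; Ifng, Il18r1 and Il18rap stand above control on both KO arrays, and Il12rb1 on the NK1.1− KO array alone by 2-fold.

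The probe set shared by Klrb1b and the NK1.1 gene Klrb1c read 1618 on the NK1.1+ KO, 52.7 on the NK1.1− KO and 7.09 on the control array. It was highest in the cells sorted for NK1.1. The titles give the NK1.1− KO and the control cells both as NK1.1−, so they set no order between these. The brightest Tgfbr2 probe set read 1808, 1271 and 2634. Which exon was floxed is unknown here, and a probe set outside it would check nothing. The ratio of 3′ to 5′ values of Actb came to 81.8, 12.3 and 6.02 on the arrays in this order, and that of Gapdh was 10.8, 26.7 and 17.8. Over all measured genes the median log2 difference from control was -0.17 for NK1.1+ KO and 0.011 for NK1.1− KO cells, and it was -0.24 between the KO arrays. Of the calls against control, 30.1% were higher for NK1.1+ KO cells, which became 40.7% after quantile normalization and 39.3% after centring on the median. Between the KO arrays the share of higher calls was 23.5%, which became 36.3% and 39.3%. The part of RNA quality in the differences seen on the NK1.1+ KO array could not be measured and was not tested.

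In receptor-deficient NK1.1− cells, the cytokine gene and 3 receptor genes of these pathways were at least 2-fold above control, and the chain Ifngr1 of the interferon γ receptor, Stat4 and the shared kinases were not. Ifng was 24.3-fold, Il18rap 9.84-fold, Il12rb1 3.08-fold and Il18r1 2.53-fold higher. In all, 4 of the 8 measured genes were called higher, where 8.04% of 10089 genes measured on either array were. None was called lower, against 5.54% of these genes. The median log2 difference of the 8 genes was 0.98, against 0.011 over all genes.

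Receptor-deficient NK1.1+ cells were above control for the same cytokine gene and both IL-18 receptor chains, but not for the IL-12 receptor chain. Ifng was 18.8-fold, Il18rap 18.5-fold and Il18r1 3.50-fold higher, and Il12rb1 1.53-fold below. Thus 3 of 8 measured genes were called higher, against 9.83% of 10668 genes. None was called lower, while 22.8% of these genes were. The median log2 difference of the 8 genes was 0.29, against -0.17 over all genes. The comparisons with control share the control array, so a value that is off on that array moves both.

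Between the KO fractions, Il12rb1 alone of the 8 measured genes was called. It was 4.71-fold lower in NK1.1+ than in NK1.1− cells. Among 10660 genes, 21.2% were called lower in this comparison and 6.53% higher, so 1 lower and 0 higher of 8 is no more than that share. The next largest differences were those of Stat4, at 1.98-fold lower, and Il18rap, at 1.88-fold higher in NK1.1+ cells.

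**Figure D2:**
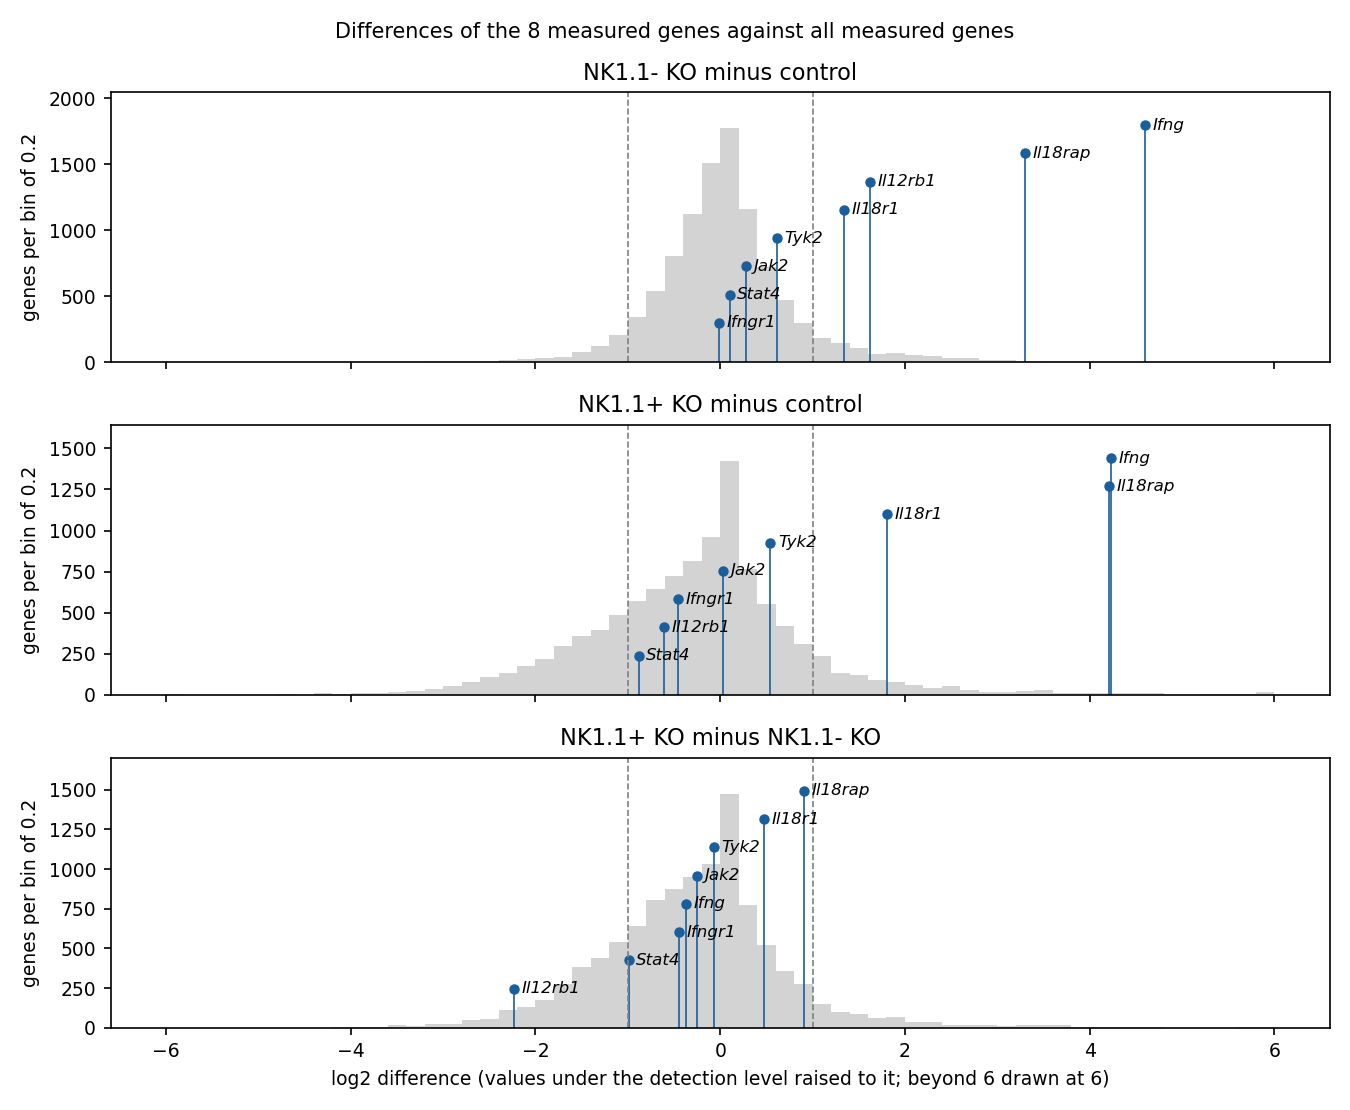
Log2 differences of the 8 measured genes (blue points on stems, whose height carries no value) over the histogram of all genes measured on either array (grey), for the 3 comparisons between single arrays. Dashed lines mark 2-fold; Ifng and Il18rap lie far to the right of the bulk against control, at 4.60 and 3.30 for NK1.1− KO and at 4.23 and 4.21 for NK1.1+ KO cells.

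Ifng, the effector cytokine, read 2997 in NK1.1+ KO cells, 3874 in NK1.1− KO cells and 159.5 in the control. Both KO arrays were far above control, and they differed from each other by 1.29-fold. Counted from the largest excess over control, Ifng ranked 10 of 10089 genes in NK1.1− KO cells and 60 of 10668 in NK1.1+ KO cells. Its log2 difference stayed between 4.35 and 4.67 in NK1.1− KO and between 3.98 and 4.40 in NK1.1+ KO cells over the 8 other ways of processing. The control value was itself well above the detection level. Of the genes next to Ifng on chromosome 10 in the RefSeq order, named after the values were seen, Dyrk2 read 3099, 2523 and 3345 in the same order of arrays. The next gene, Cand1, read 116, 311 and 546.5. Neither gene was above control on a KO array.

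The 5 genes with the pattern closest to Ifng over the 3 arrays were Baiap3, Bhlhe40, Esm1, Plek and Apobec2, by Euclidean distance of log2 values centred on each gene's mean, among 8918 genes measured on all 3 arrays. Their distances were 0.24, 0.26, 0.38, 0.43 and 0.51. Bhlhe40, a transcription factor gene of activated lymphocytes, read 718 in NK1.1+ KO cells, 778.5 in NK1.1− KO cells and 29.9 in the control. Baiap3, whose product acts in vesicle release, read 436, 465 and 18.7. Esm1, a gene named for endothelial cells, read 275, 275 and 10.2. All 3 were above control on both KO arrays, by 23.3-fold to 26.8-fold. Apobec2 had a second probe set with another pattern, at 126, 53.4 and 41.7. Plek, which encodes the leukocyte protein pleckstrin, read 1862, 2489 and 144.9 by its brightest probe set and was also above control on both KO arrays by its other 2. Of the 7 other measured genes of the group, Il18rap was the closest to Ifng, at a distance of 1.05, with 19 genes outside the group closer. Il18r1 followed at 2.40, and the others lay at 3.14 to 3.95. With 3 arrays such a distance describes the levels and no more.

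Ifngr1, the ligand-binding chain of the interferon γ receptor, read 199 in NK1.1+ KO cells, 271 in NK1.1− KO cells and 274 in the control. The NK1.1− KO and control values differed by 1.01-fold, and NK1.1+ KO cells were 1.38-fold below control. The 18.8-fold to 24.3-fold excess of the cytokine transcript thus stood beside a receptor transcript that was under 2-fold from control on both KO arrays.

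Il12rb1 encodes the chain that binds IL-12 and IL-23 and works with TYK2. It read 11.0 in NK1.1+ KO cells, 51.9 in NK1.1− KO cells and 16.8 in the control. The NK1.1− KO array was the high one, and the NK1.1+ KO value was close to the detection level of 9.57. With an offset of 32 added to the values, the log2 difference from control was 0.78 in NK1.1− KO cells, and the KO arrays differed by -0.96, both under 2-fold. With the detection level raised to 54.0, the 75th percentile over the table, Il12rb1 was measured on none of the arrays.

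Il18r1, the ligand-binding chain of the IL-18 receptor, read 1928 in NK1.1+ KO cells, 1391 in NK1.1− KO cells and 550.2 in the control. The order was NK1.1+ KO, NK1.1− KO, control, with both KO arrays above control and 1.39-fold apart. Its 2.53-fold difference in NK1.1− KO cells ranked 528 from the highest of 10089 genes.

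Il18rap, the accessory chain that turns IL-18 binding into signal, read 2209 in NK1.1+ KO cells, 1176 in NK1.1− KO cells and 119.5 in the control by its brightest probe set. The other probe set gave the same order, at 260.0, 155 and 17.3. Against control the first probe set was 18.5-fold and 9.84-fold higher, in NK1.1+ and NK1.1− KO cells, and the second 15.1-fold and 8.97-fold. Both probe sets therefore stood higher in NK1.1+ than in NK1.1− KO cells, by 1.88-fold and 1.68-fold, under the 2-fold threshold. After quantile normalization this difference was 1.07 on the log2 scale and after centring on the median 1.15, both over 2-fold. By log2 difference from control, Il18rap ranked 40 of 10089 genes in NK1.1− and 63 of 10668 in NK1.1+ KO cells.

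Il18r1 and Il18rap are neighbours on chromosome 1 in the RefSeq order, within a cluster of IL-1 receptor family genes. Of that cluster, Il1rl2, which encodes the IL-36 receptor, read 15.7 in NK1.1+ KO cells, 20.1 in NK1.1− KO cells and 27.4 in the control. It was below control on both KO arrays, by 1.75-fold and 1.36-fold. Slc9a4, a sodium-proton exchanger gene on the other side of the pair, read 4.49 to 4.81 and was measured on none. Il1r1, the IL-1 receptor gene, stood at the detection level, at 9.21 to 9.81. Of these genes of the cluster, Il18r1 and Il18rap were called higher than control and Il1rl2 and Il1r1 were not.

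Stat4, the transcription factor activated by IL-12, read 664 in NK1.1+ KO cells, 1317 in NK1.1− KO cells and 1227 in the control. The NK1.1+ KO array was the low one, 1.85-fold below control and 1.98-fold below NK1.1− KO. No call was made, and over the alternatives the difference from control was -0.89 to -0.66 on the log2 scale.

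Jak2, the kinase of the IFNGR2 and IL12RB2 chains, read 1303 in NK1.1+ KO cells, 1547 in NK1.1− KO cells and 1275 in the control by its brightest probe set, values within 1.21-fold of control. Its other probe set disagreed for NK1.1+ KO cells. It read 95.3, 235 and 261, or 2.74-fold below control and 2.47-fold below NK1.1− KO. With both probe sets averaged, the log2 difference from control was -0.71 for NK1.1+ and 0.064 for NK1.1− KO cells.

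Tyk2, the kinase of the IL12RB1 chain and of type I interferon signalling, read 338 in NK1.1+ KO cells, 355 in NK1.1− KO cells and 232 in the control. Both KO values were above control, by 1.46-fold and 1.53-fold, under the threshold. The other Tyk2 probe set was near the detection level, at 17.0, 8.07 and 12.9.

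Among the other genes of interferon γ signalling, with 24 of 25 listed names on the array, 22 were measured. In NK1.1− KO cells 4 were called higher than control and 1 lower, against 8.04% and 5.54% of all genes. The median was 0.13 on the log2 scale, against 0.011 over all genes. The 4 higher genes are known targets of interferon signalling, but other listed targets were under 2-fold from control. Among these were the GTPase genes Gbp2 (1.48-fold), Igtp (1.38-fold), Irgm1 (1.02-fold) and Irgm2 (1.03-fold). The chemokine gene Cxcl10 read 88.2 against 15.8 (5.58-fold) and the GTPase gene Gbp3 2982 against 753 (3.96-fold). Irf8 was 2.55-fold and the GTPase gene Iigp1 2.29-fold higher, with another Irf8 probe set at 1.76-fold. The lower gene was Ptpn6, encoding the phosphatase SHP-1, at 291 against 675, while its other probe set differed by 1.06-fold. Socs1 was measured on no array.

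In NK1.1+ KO cells 5 of these 22 genes were called higher than control and 6 lower, against 9.83% and 22.8% of all genes, so the count of lower genes is near the share over all genes. The median was -0.35, against -0.17 over all genes. Of the lower genes, Ptpn6, Stat3 and Pias1 were called by their brightest probe set alone. Other probe sets were 1.25-fold above control for Ptpn6 and 1.12-fold to 2.17-fold above it for Pias1. Those of Stat3 that were measured were 1.06-fold below and 1.45-fold above control. Irf8, among the higher genes, was 1.24-fold above control by its other probe set. Cxcl9, a chemokine gene that interferon γ induces in macrophages, read 191 in NK1.1+ KO cells, 10.7 in NK1.1− KO cells and 4.76 in the control, at least 20.0-fold above control. Its other probe set was at 11.6, 7.08 and 7.03. Cxcl10 was 4.41-fold higher. The antigen-processing genes Psmb9, Psmb8 and Tap1 read lower, with Psmb9 at 214 against 974 in NK1.1− KO cells and 766 in the control. Psmb9 was thus 3.58-fold below control on the NK1.1+ KO array and 1.27-fold above it on the NK1.1− KO array. Psmb8 and Tap1 were 2.95-fold and 2.65-fold below control on the NK1.1+ KO array, although the other Psmb8 probe set differed by 1.21-fold.

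Of the other IL-12 and IL-23 family genes, 6 of 8 names were on the array and 3 were measured. The ligand genes Il12a, Il12b and Il23a were below the level on all arrays. Ebi3, a subunit of IL-27 and IL-35, read 85.3 in NK1.1+ KO cells, 65.2 in NK1.1− KO cells and 27.1 in the control, above control on both KO arrays. Il27ra, the IL-27 receptor gene, read 324, 361 and 825, below control on both. Il6st, whose product gp130 pairs with it, read 22.3, 106 and 745, which is 33.4-fold and 7.05-fold below control, and its 3 other probe sets were 1.09-fold to 8.12-fold below control in NK1.1+ KO cells. The receptors of this family thus differed in direction, with Il12rb1 above and Il27ra and Il6st below control in NK1.1− KO cells.

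Of the other IL-18 and IL-1 family genes, 16 of 18 names were on the array and 14 were measured. In NK1.1− KO cells 2 were called higher than control and 0 lower, against 8.04% and 5.54% of all genes, with a median of 0.24 against 0.011. In NK1.1+ KO cells 3 were called higher and 3 lower, against 9.83% and 22.8%, with a median of -0.033 against -0.17. The count of lower genes there is near the share over all genes, and 2 or 3 higher genes of 14 are few to read. Casp1, the protease that matures IL-18 and IL-1β, read 434.5 in NK1.1+ KO cells, 623 in NK1.1− KO cells and 37.6 in the control, 11.6-fold and 16.6-fold above control. The cytokine gene Il18 itself was dim, at 46.8, 26.8 and 10.8, and 4.33-fold and 2.48-fold above control. Sigirr, an inhibitory receptor of the family, read 56.1, 138 and 188, and was called lower in NK1.1+ KO cells alone (3.35-fold). The adaptor gene Myd88, through which the IL-18 receptor signals, read 246, 276 and 219. Il1r2, a decoy receptor for IL-1, read 8.03, 31.6 and 19.5. The receptor chains and the protease that matures the ligand were thus above control, and the adaptor was within 1.26-fold of it.

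Of 17 regulators of Ifng transcription, 15 were measured. In NK1.1− KO cells 8 were called higher than control and 0 lower, against 8.04% and 5.54% of all genes, and the list's median difference was 1.02 on the log2 scale, against 0.011. In NK1.1+ KO cells 6 were called higher and 3 lower, against 9.83% and 22.8%, and the median was 0.31, against -0.17. Gadd45b was among the 6 at 2.07-fold, while another of its probe sets was 2.15-fold below control in these cells. Tbx21, encoding T-bet, read 1568 in NK1.1+ KO cells, 2170 in NK1.1− KO cells and 192 in the control. Its level was high on both KO arrays. Id2, Prdm1 and Runx3 were also called higher in both fractions, at 2.70-fold to 6.73-fold. Eomes, the T-box relative of T-bet, read 734, 2085 and 593 and was 3.52-fold above control in NK1.1− KO cells alone. Another Eomes probe set was 2.01-fold below control in NK1.1+ KO cells. Batf read 22.7, 123 and 60.9, and Irf4 40.1, 205 and 97.6. Both encode factors that rise with antigen receptor signalling. They were called higher than control in NK1.1− KO and lower in NK1.1+ KO cells, and Il12rb1 had the same order of the 3 arrays. Between the KO arrays Batf was 5.43-fold and Irf4 5.11-fold lower in NK1.1+ cells. Fosl2 read 306, 124 and 66.9 and was 2.48-fold higher in NK1.1+ than in NK1.1− KO cells, with another probe set near the level.

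Of the 6 listed receptor and STAT genes of type I and type III interferon and IL-10, 5 were measured against control. Of these, 0 were called higher on a KO array, 1 was called lower in NK1.1− KO cells, against 5.54% of all genes, and 2 in NK1.1+ KO cells, against 22.8%. Ifnar1, a chain of the type I interferon receptor, read 48.2 in NK1.1+ KO cells, 77.4 in NK1.1− KO cells and 157 in the control, and its other probe set differed from control by 1.72-fold at most. Il10ra, also called lower in NK1.1+ KO cells, read 13.2, 40.8 and 35.8. Ifnar2 was not called by its brightest probe set, at 1.45-fold above control in NK1.1+ KO cells. Its others disagreed, at 2.20-fold above and 2.71-fold below control in these cells. Il10rb, which like Ifnar1 lies close to Ifngr2 on chromosome 16 in the RefSeq order, read 561, 513 and 429.

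**Figure D3:**
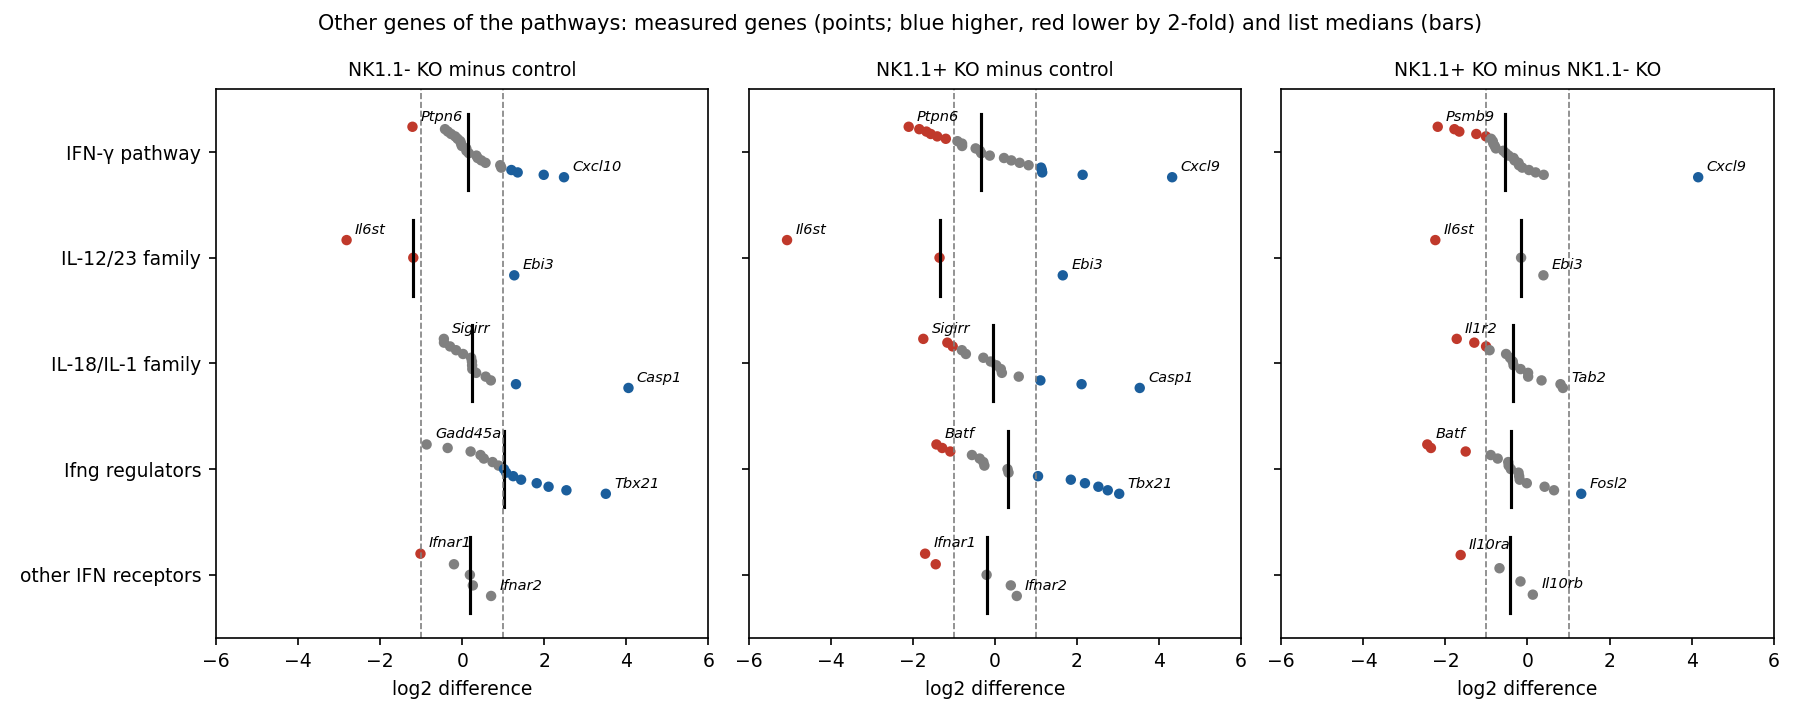
Log2 differences of the measured genes of 5 lists of related genes (points, blue where called higher and red where called lower) with each list's median (black bar), in the 3 comparisons between single arrays. The highest and lowest gene of a list are named and dashed lines mark 2-fold; the regulators of Ifng have a median of 1.02 in NK1.1− KO cells against control, and Cxcl9 stands alone at the right for NK1.1+ KO cells.

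Some markers of other cells were highest on the NK1.1+ KO array, while others were not. Of 15 markers of monocytes, macrophages and granulocytes, 13 were on the array, of which 10 were measured in NK1.1+ KO cells, 8 in NK1.1− KO cells and 7 in the control, with summed values of 10060, 1167 and 497. Csf1r gave most of the sum on the NK1.1+ KO array, at 7666, 54.5 and 30.5, and Ccr2, a chemokine receptor gene that effector T cells also express, most of it on the NK1.1− KO array, at 1114, 815 and 226. In NK1.1+ KO cells 9 of 10 measured markers were called higher than control and 0 lower, against 9.83% and 22.8% of all genes. In NK1.1− KO cells 1 of 8 was called higher and 0 lower, against 8.04% and 5.54%. Lyz2 read 541, 23.4 and 23.7, and Adgre1 66.6, 11.2 and 9.85. Cd14, Itgam and C1qa were below the level on all arrays. Summed dendritic cell markers were 1793, 560.5 and 431, led by H2-Aa, and Itgax read 187 in NK1.1− KO and 103 in NK1.1+ KO cells. Summed B and plasma cell markers were 2451, 146 and 309, of which Jchain gave 2282 on the NK1.1+ KO array, while Cd79a and Pax5 were below the level on all 3. The B cell genes Ms4a1, at 108.4, 76.65 and 211.5, and Cd79b, at 24.5, 26.0 and 53.7, were highest on the control array. The part of such cells in the Cxcl9, Irf8, Ifngr1 and Jak2 values of NK1.1+ KO cells was not tested. In sorted bulk RNA, fewer cells of a type and less RNA per cell cannot be told apart.

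Of 6 NK cell markers, most of which activated CD8+ T cells also express, 5 were on the array and 4 measured. Their summed values were 15410 in NK1.1+ KO cells, 5764 in NK1.1− KO cells and 3753 in the control, with Ncr1, the NK cell receptor NKp46, below the level on all arrays. Klrd1 gave most of each sum, at 11870, 5403 and 3687, and Klre1, Klrc1 and Tyrobp had the same order of arrays. Summed CD8 T cell markers were 3685, 7143 and 10220, all 6 measured on each array, with 5 of 6 called lower than control in NK1.1+ KO cells, where 22.8% of all genes were, and 0 in NK1.1− KO cells, where 5.54% were. Cd3e was the exception by brightest probe set, at 776, 750.3 and 701. The other Cd8a probe sets disagreed with each other. The brightest of them read 961.5, 814.7 and 962.4. In NK1.1+ KO cells, others were 1.02-fold above and 1.29-fold below control, and another was lower, at 21.3 against 256. The other Cd247 probe sets that were measured were dim, at 1.13-fold and 1.415-fold below control in these cells. By brightest probe set, Il12rb1 and Stat4 were lowest on the NK1.1+ KO array, as these T cell markers except Cd3e were. Il18rap and Il18r1 were highest there, as the measured NK cell markers were. The part of cell composition in these differences was not tested. Summed CD4 T cell markers were 186, 418 and 447.

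**Figure D4:**
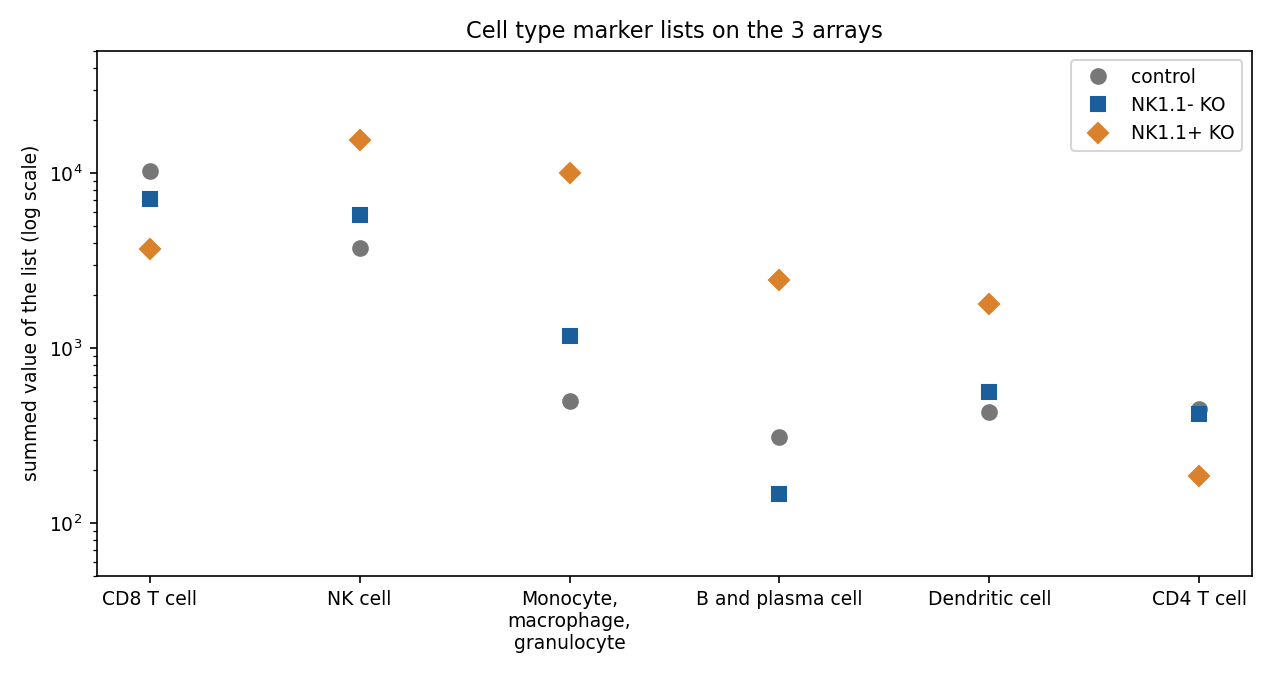
Summed values (log axis) of 6 lists of cell type markers on the control, NK1.1− KO and NK1.1+ KO arrays, with 1 point per array and no error. CD8 T cell markers sum to 10220 on the control and to 3685 on the NK1.1+ KO array, and monocyte, macrophage and granulocyte markers are highest on the NK1.1+ KO array at 10060.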

How the data were processed

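RNA of 3 samples was measured on 1 Affymetrix array each, with the group given by its title. The deposited intensity values, 1 for each of 45101 probe sets and array, are linear and were made with GCRMA 1.1.3, per the submitters' processing notes. GCRMA corrects background by probe sequence, normalizes arrays and summarises probes; no settings are known here. From the table, 64 array controls, 932 probe sets with several symbols and 9160 with none were left out of the gene values. Of these, only the probe set shared by Klrb1b and Klrb1c and the array controls with 3′ to 5′ ratios are named. No probe set with several symbols named one of the 10 genes.

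Log2 was taken after the detection level was applied, with Python 3.11.15, numpy 2.4.6 and pandas 2.3.3. With 1 array per group no test was possible and no p-value is given; the number of arrays limits the precision. Calling was tested on simulated data with known changes. These were well over the call threshold and planted in bright genes only, with a noise chosen beforehand. The simulation therefore checks the code, and neither dim genes such as Il12rb1 nor the noise between real arrays. The genes, the 5 pathway lists and the 6 marker lists (119 names, 110 on the array) were chosen with earlier results of these data known, and none of them is independent evidence. The rule for named genes took all 10 genes, the 2 to 4 genes per list and comparison with the largest absolute difference, the 5 genes closest to Ifng, and Tgfbr2 and Klrb1c. Genes outside this rule were added after their values were seen: the chromosomal neighbours, Socs1, Stat3, Pias1, Iigp1, Gbp2, Igtp, Irgm1, Irgm2, Gadd45b, Ccr2, Il10rb, Il1r1, Myd88, the IL-12 and IL-23 ligands, and the markers named as below the level. The alternatives were another level, no level, an offset, the mean of all probe sets, probe sets without a letter suffix, quantile normalization, centring on the median and a 3-fold call.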

Additional observations from a re-analysis of the deposited data

Results flagged for a closer look

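Of the measured genes, 2 had differences from control of opposite sign in the KO fractions. The log2 difference of Il12rb1 was 1.62 in NK1.1− KO and -0.61 in NK1.1+ KO cells, and that of Stat4 was 0.10 and -0.89. With 1 array per group and a shared control array, the difference between the fractions was not tested.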

How the results depend on the processing

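The numbers of called genes per comparison were within 1.5 times of those reported in 44 of 48 recomputed counts. Within that range, the count called higher in NK1.1− KO cells against control was still 3 in place of 4 under some settings. These were the detection level at the 75th percentile, the offset and the 3-fold call. The exceptions all concern NK1.1+ against NK1.1− KO cells. With the detection level at the 75th percentile over the table, and with an offset of 32, the count called lower was 0 in place of 1, as Il12rb1 was then not measured or under 2-fold. With quantile normalization, and with centring on the median, the count called higher was 1 in place of 0, the gene being Il18rap. Of 189 recomputed differences of single genes, 184 kept their side of the threshold, 3 were no longer called and 2 were newly called. The 3 were Il12rb1 with an offset in 2 comparisons, and Il18r1 in NK1.1− KO cells at a 3-fold call. The 189 leave out Il12rb1 with the detection level at the 75th percentile, where it was measured on no array. Its calls in the same 2 comparisons were lost there as well. Many of the 184 had little room to change. For a gene with 1 probe set above both detection levels, only the offset, quantile normalization and centring can move the difference. None of the called differences changed sign. Uncalled differences near 0 did: that of Jak2 between NK1.1+ KO and control cells ranged from -0.71 to 0.25, and that of Tyk2 between the KO arrays from -0.070 to 0.38. No paired analysis was possible because each group has 1 array. Leaving out a replicate was not possible either. Dim genes are limited by the detection level: Ifngr2 and Il12rb2 give no difference.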
